A study of Homo sapiens with 93 samples.

Results

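The genes examined encode RNA polymerase II elongation factors and the PAF complex: POLR2A, SUPT6H, IWS1, SUPT5H, PAF1, CTR9, CDC73, LEO1, RTF1 and CDK9. They were chosen by name, as a list of 10 Ensembl gene identifiers, and no measured value entered the rule. Earlier results of these data were known when the list was made. All 10 were present among the 14000 features of the deposited count table, and all 10 passed the filter of at least 10 counts in at least 47 libraries, as did 13915 features in all. The table holds CUT&Tag counts of H3K36me3, histone H3 trimethylated at lysine 36, in 93 lymphoblastoid cell lines with 1 library each. CUT&Tag directs a transposase to an antibody bound on chromatin, and the DNA that it cuts is sequenced. Lymphoblastoid lines are B cells made to grow indefinitely by Epstein-Barr virus.

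All lines belong to 1 untreated group, grown in medium with 20% serum, as 4 batches holding about 20 to 35 lines each. For the assay 100000 cells per line were frozen, and libraries were amplified with 14 PCR cycles. No label gives the batch of a line. Differences between libraries therefore hold line, culture, batch and preparation together, and the comparisons below are across lines and between genes. Library totals ran from 2842955 to 24325746 counts, with a median of 14883653. The cell type was not checked against B cell markers, because no symbol other than those of the 10 genes is paired with the identifiers in the sources used here. The list of other elongation genes was not used for the same reason.

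H3K36me3 is written over the bodies of transcribed genes by SETD2, a methyltransferase that travels with elongating polymerase II. Polymerase II pauses soon after initiation under DSIF, of which SUPT5H is the large subunit, and the kinase CDK9 releases it by phosphorylating DSIF and the tail of POLR2A, the catalytic subunit. SUPT6H, a histone chaperone, and its partner IWS1 then join the moving polymerase, as does the PAF complex, in which CTR9 is a scaffold and PAF1, CDC73 and LEO1 are further core subunits. RTF1 is a more loosely held PAF-associated factor that promotes ubiquitination of histone H2B. The mark measured here lies on the genes that encode these proteins, and nothing in the data bears on the proteins themselves.

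The genes lie on 7 chromosomes, and their RefSeq spans on GRCh38.p14 differ widely in length. POLR2A (ENSG00000181222.17) spans chr17:7484366-7514616 (30.3 kb) and SUPT6H (ENSG00000109111.15) chr17:28662205-28702679 (40.5 kb). IWS1 (ENSG00000163166.15) lies at chr2:127480812-127527336 (46.5 kb). SUPT5H (ENSG00000196235.14), at chr19:39445582-39476670 (31.1 kb), and PAF1 (ENSG00000006712.15), at chr19:39385629-39391106 (5.48 kb), are neighbours separated by 54.5 kb and by 5 rows of the table. CTR9 (ENSG00000198730.9) lies at chr11:10751246-10779746 (28.5 kb). The longest gene, CDC73 (ENSG00000134371.14), covers chr1:193122031-193254815 (133 kb). LEO1 (ENSG00000166477.13) occupies chr15:51938025-51971778 (33.8 kb) and RTF1 (ENSG00000137815.14) chr15:41417095-41483563 (66.5 kb). CDK9 (ENSG00000136807.14) is the shortest, at chr9:127786034-127790792 (4.76 kb). No source used here gives the interval that the authors counted for each identifier, so these spans are the annotated genes and not necessarily the counted regions.

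RefSeq promoter sequences of GRCh38.p14, from 250 bases before to 50 bases after the start, were matched by symbol for 9 of the 10 genes, CDC73 being the exception. 3 of them are printed because SUPT6H, SUPT5H and CDK9 form the gene pairs whose signal moved together most closely, as described below. Each is given on the strand of its gene. Capitals mark matches, on either strand, to GGGCGG (GC box), CGGAAG (ETS core) or AAGATGG (YY1 core). The windows are chr17:28661955-28662254, chr19:39445332-39445631 and chr9:127785784-127786083, all on the plus strand; for SUPT5H it is the first of 2 promoter entries.
SUPT6H: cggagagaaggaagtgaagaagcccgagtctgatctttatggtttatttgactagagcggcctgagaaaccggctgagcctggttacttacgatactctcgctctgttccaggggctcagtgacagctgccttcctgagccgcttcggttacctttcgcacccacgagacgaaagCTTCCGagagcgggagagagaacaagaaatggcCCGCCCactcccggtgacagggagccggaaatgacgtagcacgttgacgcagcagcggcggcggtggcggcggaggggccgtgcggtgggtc
SUPT5H: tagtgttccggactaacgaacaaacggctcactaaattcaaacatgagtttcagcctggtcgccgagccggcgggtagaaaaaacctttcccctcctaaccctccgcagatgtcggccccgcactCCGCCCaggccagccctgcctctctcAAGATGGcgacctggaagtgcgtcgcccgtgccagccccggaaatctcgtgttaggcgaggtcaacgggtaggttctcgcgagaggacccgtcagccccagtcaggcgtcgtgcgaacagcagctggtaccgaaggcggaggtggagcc
CDK9: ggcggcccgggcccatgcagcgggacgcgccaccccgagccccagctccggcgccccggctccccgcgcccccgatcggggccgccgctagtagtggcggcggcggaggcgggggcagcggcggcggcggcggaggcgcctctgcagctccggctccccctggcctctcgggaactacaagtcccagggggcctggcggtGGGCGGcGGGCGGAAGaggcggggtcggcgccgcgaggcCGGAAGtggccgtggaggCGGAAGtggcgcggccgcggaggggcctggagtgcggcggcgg
The GC box was found in 8 of the 9 promoters (all but IWS1) and in 45% of the 35116 promoters in the reference. The ETS core was found in SUPT6H, CTR9 and CDK9, and in 19.5% of all promoters; in CDK9 it overlaps a GC box. The YY1 core was found in SUPT5H alone among the 9, and in 5.84% of all. CCAAT occurred in IWS1 and PAF1 and in 34.6% of all promoters, while TATAAA (11.5% of all) and TGACGTCA (1.85% of all) occurred in none of the 9. A match describes the letters only. H3K36me3 was counted per gene, and no value here was measured at a promoter.

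Most of the 10 genes carried a high H3K36me3 signal per feature. The median log2 CPM (CPM, the count relative to its TMM-scaled library size) was above the median feature for 9 of 10 genes, and above the 80th percentile of features for 7 of 10. PAF1 was the exception, at -1.37 log2 relative to the median feature. These are levels per feature, which a long gene raises, and in bulk chromatin fewer marked cells and less mark per cell cannot be told apart.

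SUPT6H had the highest signal per feature, with a lowest count of 543, a median of 3329 and a highest of 6286. Its CPM was 163 in the lowest line, 213 at the median and 264 in the highest, so the extremes differed by 1.62 times. No line departed from the SUPT6H median by more than 25%. Its partner IWS1 ran from 103 CPM through 146 to 198.

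POLR2A had 85.5 CPM in the lowest line, 129 at the median and 173 in the highest. SUPT5H was close to it, at 97.3, 133 and 178 CPM. The kinase gene CDK9 was lower and more spread, at 29 CPM in the lowest line, 53.7 at the median and 90.8 in the highest. Its highest line was 3.14 times its lowest, 12 lines lay over 25% above the CDK9 median and 5 lay over 25% below it.

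Among the PAF complex genes, CTR9 had 49.1, 122 and 193 CPM in its lowest, median and highest line, a 3.92-fold range. That range rests on 3 libraries described below: in the other 90 it was 2.50-fold (77.1 to 193 CPM), beside 2.61-fold for CDK9. CDC73, the parafibromin gene, ran from 92.3 CPM through 145 to 219, with 8 lines over 25% above the median. LEO1 ran from 40.9 CPM through 64.4 to 82.2. PAF1 itself stood at 9.17, 16.3 and 21.6 CPM, from counts of 44, 229 and 482, so its shallowest values rest on few reads. RTF1 was the steadiest gene by coefficient of variation, 9% over 93 lines, with 99.5, 120 and 159 CPM, and 75 of 93 lines lay within 10% of its median. Coefficients of variation of the 10 genes ran from that value to 19.7% for CDK9, with a median of 12.6%, against 20.5% for all features tested. These medians are not matched for level, and 7 of the 10 genes lie above the 80th percentile of features.

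**Figure D1:**
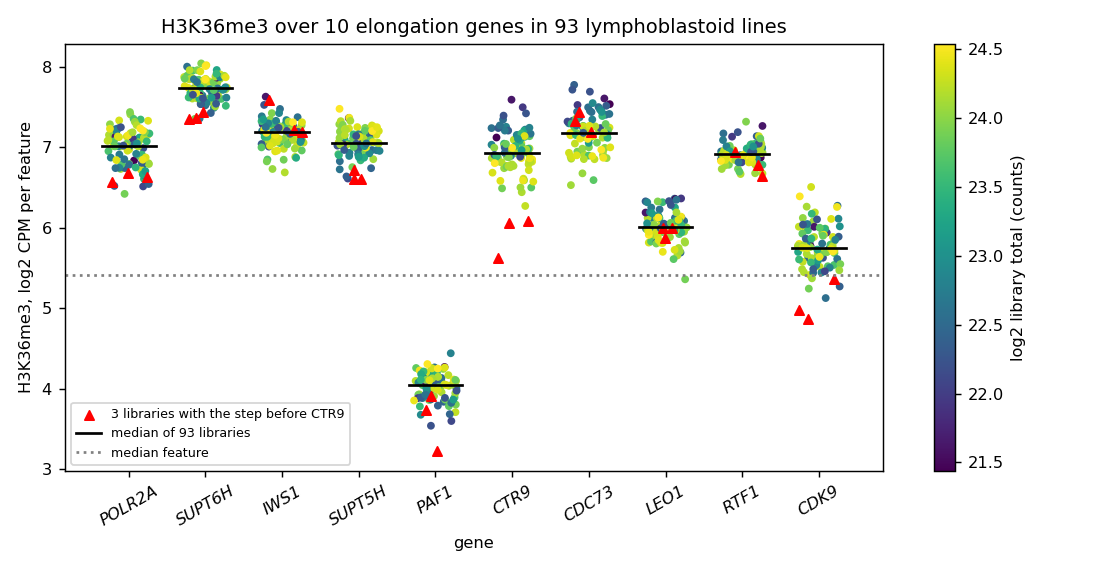
H3K36me3 in log2 CPM per feature (y axis) for the 10 genes (x axis) in 93 lymphoblastoid lines, each point 1 library coloured by log2 library total, with a black line at each gene's median and a dotted line at the median feature. Red triangles are the 3 libraries in which the step in the counts lies before CTR9; they are the 3 lowest points of CTR9, and PAF1 is the only gene whose median lies below the dotted line.

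Divided by the RefSeq gene span, the order of the genes changed. On this scale of CPM per kilobase, CDK9 came first with a median of 11.3 (6.08 to 19.1 over lines), followed by SUPT6H at 5.25 (4.02 to 6.51). CTR9 at 4.28, SUPT5H at 4.28 and POLR2A at 4.27 were next, then IWS1 at 3.14 and PAF1 at 2.98. LEO1 at 1.91, RTF1 at 1.81 and CDC73 at 1.09 came last. PAF1, lowest per feature, thus stood in the middle of the list per kilobase, and CDC73, near the top per feature, was lowest.

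Neighbours in this order were compared within lines with a two-sided sign-flip permutation test of the mean log2 difference, in 9 comparisons with unadjusted p. CDK9 exceeded SUPT6H in 93 of 93 lines, by 1.12 ± 0.23 log2 (SD). RTF1 exceeded CDC73 in 93 of 93 lines, by 0.73 ± 0.22 log2. Both had p = 1e-05, the smallest the permutations can give. CTR9 and SUPT5H did not differ beyond their spread (CTR9 minus SUPT5H -0.01 ± 0.31 log2, CTR9 higher in 45 of 93 lines, permutation p = 0.786; 0.01 ± 0.29 log2 in the 90 libraries, permutation p = 0.723). The same held for SUPT5H and POLR2A (0.03 ± 0.17 log2, SUPT5H higher in 51 of 93 lines, permutation p = 0.125). IWS1 and PAF1 differed by only 0.08 ± 0.26 log2, with IWS1 higher in 54 of 93 lines (permutation p = 0.0032). LEO1 exceeded RTF1 by 0.07 ± 0.17 log2, in 59 of 93 lines (permutation p = 0.00022). The remaining 3 pairs of neighbours each had permutation p = 1e-05. The pairs and their order were taken from the same values that were tested. These p-values cover spread between lines only, and not how far the RefSeq span departs from the counted interval. Small differences such as 0.07 and 0.08 log2 therefore set no firm order.

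Levels also differed along the table. Ordering the 10 genes by chromosome name as text and then by start gave their row order, from CDC73 at row 1222 to CDK9 at row 13830. POLR2A, SUPT6H, SUPT5H, PAF1, LEO1 and RTF1 lie in the rows after 3200 up to 7700, where the median feature stood at 4.88 log2 CPM. CDC73, IWS1 and CDK9 lie in stretches with medians of 5.76, 5.91 and 5.79. Set against the features within 100 rows on either side, SUPT6H stood 2.66, POLR2A 2.56 and SUPT5H 2.50 log2 above the local median, while CDK9 stood 0.36 and PAF1 0.54 log2 below it (-0.36 and -0.54). CDK9 was thus above the median of all features, by 0.34 log2, and below the median of its own stretch. The order per kilobase above also mixes these stretches, and how much of it they account for was not tested.

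CTR9 needs separate treatment, because it lies at row 2184, within the rows after 1900 up to 3200 where the counts of each library drop at a row of its own. The drop was located from the other features of that stretch. Depending on the library it followed row 2017 at the earliest and row 3047 at the latest, and its size was 0.747 to 0.997 log2, with a median of 0.87. In 3 libraries the drop came before CTR9, and in the other 90 after it. The 3 libraries had 49.1, 66.5 and 67.7 CPM of CTR9, against 77.1 to 193 CPM, with a median of 125, in the 90. They were the 3 lowest of all lines for this gene. The mean log2 CPM was 5.92 ± 0.26 in the 3 and 6.95 ± 0.24 in the 90 (SD), a difference of -1.03 log2.

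The same 3 libraries were also lower for several genes far from that stretch. CDK9 averaged 5.07 log2 CPM in them and 5.78 in the 90, SUPT5H 6.64 and 7.07, PAF1 3.62 and 4.03, and SUPT6H 7.38 and 7.74. POLR2A was lower by 0.37 log2 (-0.37, the 3 minus the 90). RTF1 (-0.14) and LEO1 (-0.06) differed less on the same scale. IWS1 (7.34 and 7.17) and CDC73 (7.32 and 7.19) were slightly higher in them. Their totals, 3871084 to 7987154 counts, were within the lower part of the range. The main results on CTR9 are therefore also given without these 3 libraries.

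**Figure D2:**
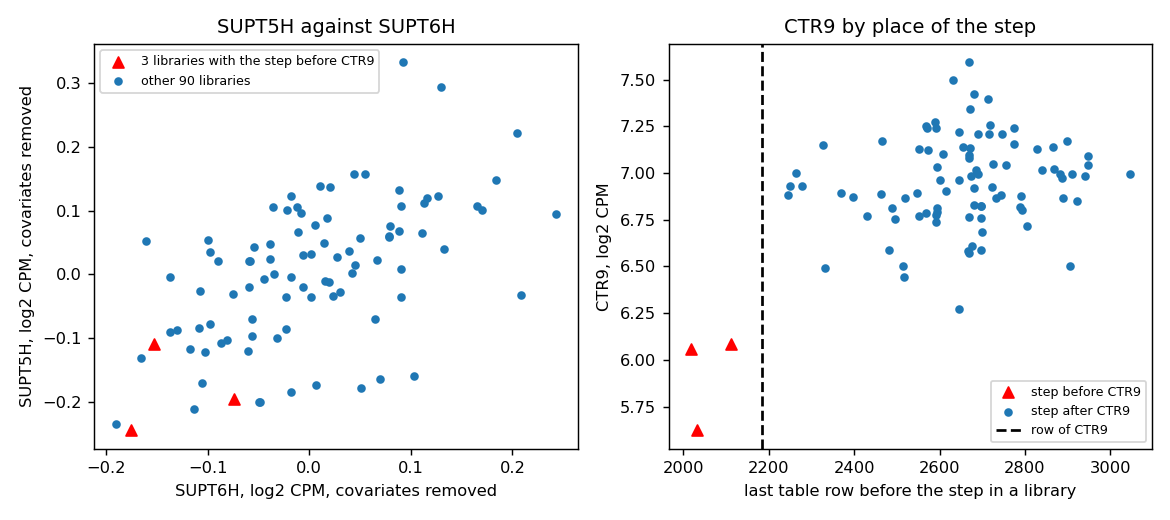
Left, log2 CPM of SUPT5H (y axis) against SUPT6H (x axis) after removal of library total and dynamic range, 1 point per library, with r = 0.563 over 93 lines. Right, log2 CPM of CTR9 (y axis) against the last table row before the drop in each library (x axis), with CTR9's own row 2184 as a dashed line; the 3 libraries left of the line (red triangles in both panels) are the lowest for CTR9.

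None of the genes was called more variable between lines than features of similar count. A feature's own dispersion was set against the trend over all features with edgeR's goodness-of-fit test, with library total (log2) and dynamic range in the fit. Dynamic range is the median log2 CPM of the top 20% of features by level minus that of the bottom 20%, and ran from 4.17 to 4.99 between libraries. The test called 0 of the 10 genes variable (adjusted p = 1 for each, edgeR), against 18.6% of all features. At an unadjusted p under 0.05 the count of genes was also 0, and DESeq2's dispersion outliers included 0 of them, against 1.83% of all features.

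Their own dispersions lay below the trend for 10 of 10 genes, against 68% of all features. The log2 ratio of own to trended dispersion had a median of -1.84 over the 10, beside -0.55 over all features tested. PAF1 had the lowest ratio, -3.00, at percentile 0.259 of all features, and SUPT6H followed with -2.70, at percentile 1.03. RTF1 (-2.37), SUPT5H (-2.26) and LEO1 (-2.22) stood below percentile 5. IWS1 (-1.47) and CDC73 (-1.41) were at percentiles 19.9 and 21.5, and POLR2A (-0.80) at 41.4. CDK9 (-0.18) and CTR9 (-0.14) were nearest to the trend, at percentiles 62.1 and 63.2. With 5 principal components in the fit POLR2A was at -0.18 and CDK9 at -0.88, so which genes lie near the trend depends on that choice; with no covariate CDC73 was at -0.60. Without the 3 libraries in which the drop preceded it, CTR9 had a ratio of -1.48, while CDK9 had -0.26. Apart from CDK9, the genes thus had ratios of -0.72 or lower in those 90 libraries.

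**Figure D3:**
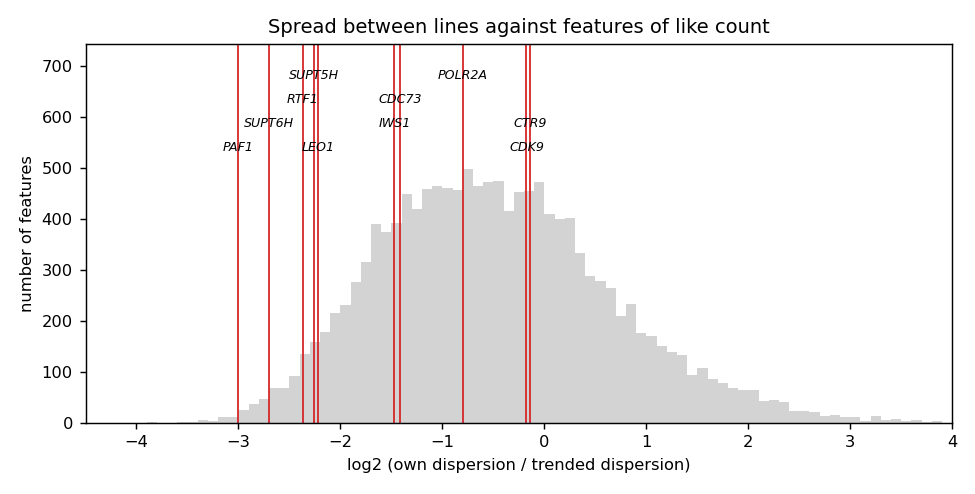
Histogram of the log2 ratio of own to trended dispersion over 13915 features (x axis, log2 ratio; y axis, number of features), with red lines at the 10 genes. All 10 lines lie below 0, from -3.00 for PAF1 to -0.14 for CTR9.

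Signal relative to the library depended on how deep the library was, and its direction differed between genes. In edgeR's quasi-likelihood test with both covariates in 1 fit, 5 of the 10 genes rose with library total, 1 fell and 4 did not pass the threshold. Of all features 25.4% rose and 42% fell, 67.4% in all. With library total as the only covariate, 4 genes rose, 5 fell and 1 did not pass, against 27.8% of features rising and 33.4% falling. In the fit with both, POLR2A rose by 0.18 ± 0.03 log2 per doubling of the total (SE, adjusted p = 2.23e-09), SUPT5H by 0.18 ± 0.02 (adjusted p = 4.46e-15) and SUPT6H by 0.16 ± 0.01 (adjusted p = 7.34e-16). CDK9 rose by 0.17 ± 0.03 (adjusted p = 4.3e-06) and PAF1 by 0.12 ± 0.02 (adjusted p = 5.72e-06). CDC73 fell by 0.14 ± 0.02 (adjusted p = 2.46e-08). With library total alone the slopes were 0.098 for POLR2A, 0.11 for SUPT5H, 0.079 for SUPT6H, 0.079 for PAF1 and -0.20 for CDC73, all past the edgeR threshold, and 0.064 for CDK9, which was not (adjusted p = 0.108).

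In plain levels, POLR2A averaged 135 ± 18.3 CPM in the 47 libraries with the larger totals and 122 ± 19.2 CPM in the 46 with the smaller (SD). SUPT5H averaged 142 ± 13.3 and 125 ± 14.2 CPM in the same order of larger and smaller totals. For CDC73 the values were 134 ± 15.6 CPM in the larger and 163 ± 23.2 CPM in the smaller libraries. SUPT6H averaged 220.1 ± 21.3 CPM in the larger and 204.8 ± 22.9 CPM in the smaller libraries. For CDK9 the averages were 56.47 ± 11.02 and 53.42 ± 10.56 CPM in that order. PAF1 had 16.6 ± 1.53 and 15.6 ± 2.31 CPM. The difference was larger than 1 SD for SUPT5H and CDC73 only. It was smaller than 1 SD for POLR2A, SUPT6H, CDK9 and PAF1, although their slopes passed the edgeR threshold.

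IWS1 (-0.04 ± 0.02 log2 per doubling, adjusted p = 0.0672), LEO1 (-0.04 ± 0.02, adjusted p = 0.0506), RTF1 (0.00 ± 0.02, adjusted p = 0.921) and CTR9 (-0.06 ± 0.03, adjusted p = 0.0821) did not pass the edgeR threshold. For CTR9 this depended on the libraries and covariates used. Without the 3 libraries with the early drop its slope was -0.11 (adjusted p = 2.21e-05, edgeR), past the threshold, where 35.8% of features fell with the total. CTR9 also passed without the 10 smallest libraries (-0.091, adjusted p = 0.00984, edgeR). With library total as the only covariate it passed as well (-0.16, adjusted p = 1.81e-05, edgeR).

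With dynamic range, 10 of 10 genes rose (edgeR quasi-likelihood test). Of all features 40.4% rose and 38% fell, 78.3% in all. Slopes ran from 0.42 ± 0.08 log2 per log2 unit for RTF1 (SE, adjusted p = 2.35e-06) to 1.07 ± 0.16 for CDK9 (adjusted p = 3.55e-09), with a median of 0.69. CTR9 had 0.91 ± 0.15, and 0.85 ± 0.10 without the 3 libraries. The median over all features was 0.07, and over the top 20% of features by level it was 0.45. Dynamic range is itself built from high features minus low ones, so highly marked genes have a positive slope in part by construction. CDK9, LEO1 and PAF1 are not in that class by level. PAF1's slope was 0.44 ± 0.11 (adjusted p = 0.000247, edgeR). With dynamic range as the only covariate 9 of 10 genes rose, against 35.7% of all features rising and 38.1% falling. In that fit PAF1 had 0.17 (adjusted p = 0.154, edgeR). The slopes of SUPT5H (0.25), POLR2A (0.36) and SUPT6H (0.38) were smaller there than in the fit with both covariates.

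**Figure D4:**
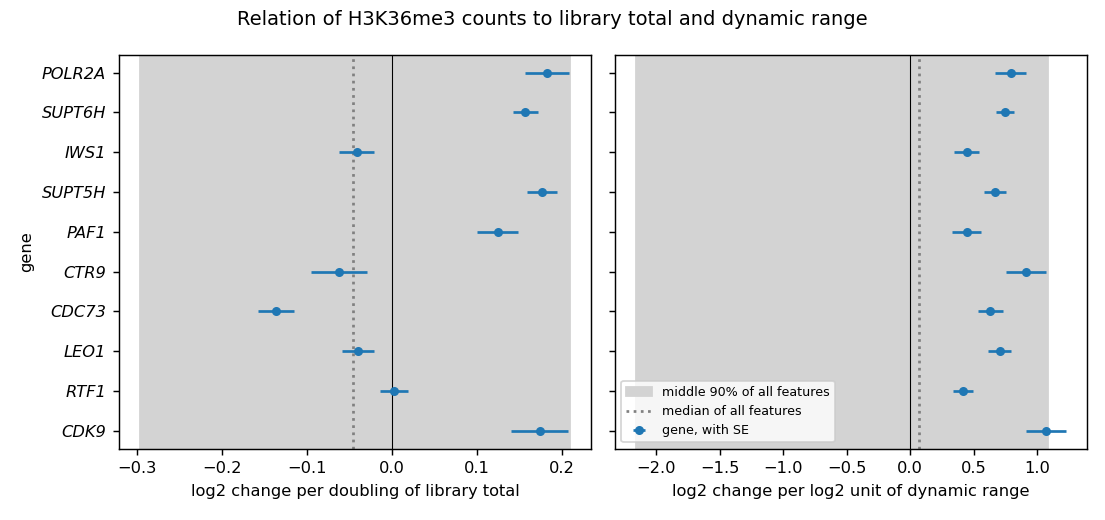
Slopes of the 10 genes on library total (left, log2 change per doubling) and on dynamic range (right, log2 change per log2 unit) from 1 edgeR fit over 93 libraries; points are estimates, bars are 1 SE, grey bands hold the middle 90% of all features and dotted lines their median. On the left the 5 genes called for a rise lie right of 0 and CDC73 left of it, each by more than its SE. IWS1, LEO1 and CTR9 also lie left of 0 by more than their SE but were not called. On the right all 10 lie right of 0.

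It was then asked whether the genes rose and fell together across lines once library total and dynamic range had been removed. A limma fit across all features with the level of 1 gene as a term was made for each of the 10. Each fit tests all other features, with adjustment over all of them. Of the 90 gene-by-gene tests, 20 passed, or 22.2%, all of them positive. Over all features and the 10 fits, 17.3% passed in either direction and 10.4% with a positive sign. All 20 were positive, but the positive share was set beside them only after the signs were seen. The difference from either share was not tested. On the share in either direction the genes fell below the background under some settings and above it under others. Below it were the deposited scores (6.67% against 11.4% of all features) and the fits without the 3 libraries with the early drop (13.3% against 15%). So were the 46 smaller libraries (7.78% against 9.37%) and the fits without the 10 smallest libraries (17.8% against 19%). Without CTR9 the share was 15.3%, against the 17.3% that still counts its fit. Above it were the fits with no covariate (66.7% against 61.1%), with 5 principal components removed (5.56% against 1.98%) and in the 47 larger libraries (5.56% against 3.34%). DESeq2 size factors (17.8% against 16.9%) and a prior count of 0.5 (23.3% against 17.3%) also gave shares above it. So did leaving out pairs under 20 rows apart (22.7% against 17.3%). These shares are not separated by sign. In the main setting the share was uneven between fits. The level of CDK9 was linked to 56.2% of features (29.8% positive) and to 6 of the 9 other genes, and that of CTR9 to 42.5% (25.2% positive) and 5 genes. Without the 3 libraries CTR9 was linked to 35% of features and 4 genes, and CDK9 to 53% and 2 genes. For SUPT5H the shares were 27.6% (18.1% positive) with 4 genes, for RTF1 18% (12.6% positive) with 1 gene and for PAF1 16.1% (7.94% positive) with 2 genes. SUPT6H was linked to 7.45% (6.76% positive) with 1 gene and POLR2A to 3.46% (2.8% positive) with 1 gene. LEO1 (0.884%, 0.841% positive), CDC73 (0.259%, 0.208% positive) and IWS1 (0 features) were linked to 0 of the other genes. The 45 correlations had a median of r = 0.155, from -0.26 to 0.563, beside a median of 0.0057 over all pairs of features. That median of the genes was 0.302 with no covariate removed, 0.0625 after taking out 5 principal components, 0.0351 for the deposited scores, and 0.0578 in the 47 larger and 0.0755 in the 46 smaller libraries. Genes are not independent replicates, and all correlations share the 93 libraries.

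Of the 45 pairs, 8 passed in both directions. The share of all pairs of features that would pass in both was not computed. This count and the counts of passing pairs below therefore have no background share beside them. The closest pair was SUPT6H and SUPT5H, 2 factors that ride with elongating polymerase and whose genes lie on different chromosomes. They had r = 0.563 and rho = 0.572 over 93 lines (permutation p = 1e-05 for both). With the 2 most extreme lines for SUPT6H left out, r was 0.588. The limma adjusted p was 1.28e-05 with SUPT6H and 4.36e-06 with SUPT5H as the term. Among the 13914 other features, SUPT5H ranked at place 29 by correlation with SUPT6H, and SUPT6H at place 120 with SUPT5H. Within the 47 libraries with larger totals r was 0.539 and within the 46 with smaller totals 0.566, where it did not pass the limma threshold (adjusted p = 0.119). It was 0.536 without the 3 libraries with the early drop, 0.429 with 5 principal components removed and 0.438 on the deposited scores. Of all pairs of features, 1.07% had a higher correlation, so the value is high but not rare.

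The next pairs involved CDK9. With SUPT5H, the DSIF subunit that CDK9 phosphorylates, it had r = 0.519 and rho = 0.504 (permutation p = 1e-05 for each; r = 0.519 without 2 lines; limma adjusted p = 6.29e-06 and 3e-06 with SUPT5H and CDK9 as the term). With CTR9 it had r = 0.498 and rho = 0.482 (permutation p = 1e-05 for each; r = 0.476 without 2 lines), and r = 0.39 without the 3 libraries with the early drop. SUPT5H and CDK9 had r = 0.409 in the 47 larger (adjusted p = 0.0772, limma, not past the threshold) and 0.556 in the 46 smaller libraries. Of all pairs of features, 1.6% exceeded SUPT5H with CDK9 and 1.93% exceeded CTR9 with CDK9. Both pairs, like SUPT6H with SUPT5H, were singled out as the highest of the 45. The shares and the permutation p make no allowance for that choice. With 5 principal components removed, SUPT5H and CDK9 had r = 0.342 (adjusted p = 0.0773, limma) and CTR9 and CDK9 had r = 0.0934 (adjusted p = 0.749, limma); neither passed the threshold.

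The other 5 pairs that passed were weaker and did not hold under several settings. They were SUPT5H with CTR9 (r = 0.36), POLR2A with SUPT5H (0.342), CTR9 with RTF1 (0.323), PAF1 with CTR9 (0.316) and PAF1 with CDK9 (0.29). Their Spearman coefficients were 0.236, 0.343, 0.305, 0.235 and 0.239 in the same order. Of all pairs of features, 5.97%, 6.84%, 7.84%, 8.26% and 9.95% had a higher correlation than these pairs, again in that order. Without the 3 libraries with the early drop, SUPT5H with CTR9 (r = 0.225, adjusted p = 0.113), PAF1 with CTR9 (0.257, adjusted p = 0.0881), PAF1 with CDK9 (0.22, adjusted p = 0.141) and POLR2A with SUPT5H (0.333, adjusted p = 0.059) fell short of the limma threshold. CTR9 with RTF1 remained past it there (r = 0.283) but had r = 0.0165 in the 47 libraries with larger totals.

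No test compared the pairs within the PAF complex and RTF1 with the other pairs. Their 10 pairs had a median correlation of 0.134, against 0.155 for the other 35 pairs, and the 2 that passed both involve CTR9. Leaving out CTR9, the 6 remaining pairs ran from -0.0741 to 0.164 with a median of 0.0333 and 0 passed, against a median of 0.122 and 4 passing among the other 30 pairs. With CTR9 kept but the 3 libraries left out, the medians were 0.133 for the 10 pairs and 0.103 for the other 35. Although PAF1 and SUPT5H are 5 rows apart, they had r = 0.257 and rho = 0.299 (permutation p = 0.0127 and 0.00391; r = 0.226 without 2 lines) and did not pass the limma threshold (adjusted p = 0.0588 and 0.0814). Adjacent rows of the table had a mean correlation of 0.28 ± 0.286 (SD over 13847 pairs).

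IWS1 and CDC73 were linked to none of the others over the 93 lines. CDC73's highest correlation with another member of the list was 0.155, with CTR9 (rho = 0.233), and that of IWS1 was 0.131, with CDC73. Without the 3 libraries CTR9 and CDC73 had r = 0.275 and rho = 0.263, which passed the limma threshold with CTR9 as the term (adjusted p = 0.0328) and not with CDC73 as the term (adjusted p = 0.215). SUPT6H and its partner IWS1 had r = -0.225 and rho = -0.203 (permutation p = 0.0305 and 0.0514; r = -0.199 without 2 lines), which did not pass the limma threshold (adjusted p = 0.2 and 0.6). SUPT6H and CDC73 had the lowest value, r = -0.26 and rho = -0.189 (permutation p = 0.0124 and 0.0706; r = -0.239 without 2 lines; limma adjusted p = 0.117 and 0.3).

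**Figure D5:**
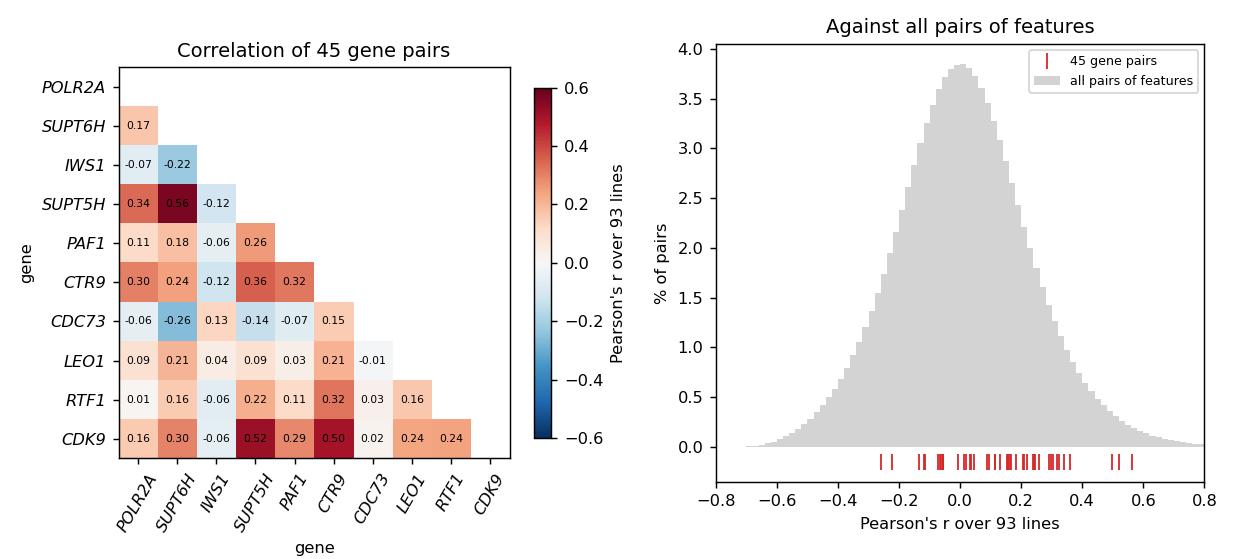
Left, Pearson correlations of the 45 gene pairs over 93 lines after removal of library total and dynamic range, printed in each cell and coloured from blue (negative) to red (positive). Right, the same 45 values as red ticks under the distribution over all pairs of features (x axis, r; y axis, percent of pairs); 33 of 45 are positive, and the highest is SUPT6H with SUPT5H at 0.563.

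For each gene the features most like it elsewhere in the table, at least 20 rows away, were closer than any gene of the list. This sets the best of 9 genes against the best of far more features, so the outcome was largely fixed in advance. The highest correlation was 0.804 for CDK9, with ENSG00000105323.17, and 0.817 for CTR9, with ENSG00000205531.13 at row 2115 in the same stretch of dropping counts. It was 0.73 for SUPT5H, 0.698 for SUPT6H, 0.68 for RTF1, 0.667 for POLR2A, 0.562 for LEO1, 0.522 for PAF1, 0.52 for CDC73 and 0.377 for IWS1. SUPT6H and SUPT5H shared 9 of the 50 features most like each, the largest overlap among the 45 pairs. CTR9 had r = 0.286 with the row before it, 0.828 with the next row and 0.736 with the row after that. Without the 3 libraries the next row had 0.729 and the row after that 0.552. For CDC73 the rows before and after had r = 0.487 and 0.237, for LEO1 0.509 and 0.446, and for SUPT5H -0.00530 and 0.370.

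The deposited normal scores ordered the lines much as the counts did. Spearman's rho of score against log2 CPM over the 93 lines ran from 0.946 for RTF1 to 0.983 for CTR9, beside a median of 0.979 over all features. Scores reached from -3.06 to 1.68 for CTR9 and from -2.11 to 3.06 for CDK9. The scores derive from the same libraries and are no separate measurement.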

How the data were processed

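H3K36me3 CUT&Tag was measured in 93 lymphoblastoid lines, 1 library each, in 1 group. The deposited count table holds whole-number counts, made by the authors, for 14000 identifiers. The deposited score table holds normal scores made by the authors, with the same sorted values in every library. The submitters' processing notes list HISAT2 2.2.1, bedtools and hg38 without saying what each was used for; the counted interval and read filters are not stated. No value column was left unmapped.

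A feature was kept if 47 or more libraries had 10 or more counts. Counts were scaled with TMM factors (0.919 to 1.05) and expressed as log2 CPM with a prior count of 2. Variability used edgeR 4.0.16 (goodness-of-fit against trended dispersion), slopes edgeR's quasi-likelihood test, and links between genes limma 3.58.1, each with Benjamini-Hochberg adjustment over all features tested and a threshold of 0.05. Permutation tests used 100000 resamples. Alternatives used DESeq2 1.42.0. Software was R 4.3.3 and Python 3.11.15. The scripts were tested on simulated data.

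The genes, lists and stretches of the table were chosen with earlier results of these data known. All 10 genes are named; of features most like each gene, the 3 highest at least 20 rows away were taken and 2 identifiers are printed. Lines are separate cell lines, but p-values also hold culture and technical spread. PCR reads are not independent molecules, so count depth gives counting error only.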

Additional observations from a re-analysis of the deposited data

How the results depend on the processing

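Alternatives were DESeq2 size factors, dispersion outliers and Wald test, a prior count of 0.5, no filter, other covariates, leaving out the 10 smallest libraries, depth classes and the deposited scores. Comparison with features within 100 rows, leaving out the 3 libraries with the early drop (also for ranges and the order per kilobase) and leaving out CTR9 were chosen after the data were seen. Of 362 comparisons with an alternative, 306 were classed as the same, by direction and side of the threshold or size of move. This class also held larger moves: the median correlation of pairs, 0.155, was 0.0351 on the deposited scores and 0.302 with no covariate. It also held the number of genes called on library total, 6, which was 9 with that covariate alone. The number of pairs that passed in both directions, 8, was 30 when no covariate was removed, 2 after removing 5 principal components, 3 for the deposited scores, 3 in the 46 smaller libraries and 2 in the 47 larger ones (fewer samples), 5 without the 3 libraries with the early drop and 4 without CTR9 (fewer pairs). The share of all features called, 17.3%, was 61.1%, 1.98%, 11.4%, 9.37%, 3.34% and 15% under the first 6 of these; the cause was not tested. Changes of sign were CTR9's dispersion ratio, 0.090 with 5 principal components (not called), RTF1's slope on library total, -0.041 without dynamic range in the fit (adjusted p = 0.0272, edgeR), CDK9's level, -0.36 against features within 100 rows, and CTR9 minus SUPT5H per kilobase, 0.011 without the 3 libraries; the cause was not tested. Also with each covariate alone, CDK9's slope on total (0.06, adjusted p = 0.108) and PAF1's slope on dynamic range (0.17, adjusted p = 0.154) fell short of the edgeR threshold, and the slopes on total of IWS1, LEO1 and CTR9 passed it. Levels per kilobase could be set only among the 10 genes, since no other feature has a length here. No paired analysis was possible because all lines form a single group, so no samples could be paired across groups. PAF1, with a lowest count of 44, is the gene most limited by depth.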
